A study of Homo sapiens with 18 samples.

Results

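The enhancers described here were active in LNCaP cells, lay outside the DNase I hypersensitive sites of this cell line, and nevertheless lay inside a region accessible to ATAC-seq under vehicle treatment. They are the peaks of the authors' list of enhancers without a DNase I site that shared at least 1 base with a peak of the vehicle ATAC list. There were 1390 of them among the 82547 DNase-negative enhancers (1.68%) and the 94527 enhancers in all, of which 6.26% lay in a vehicle ATAC peak. LNCaP is an androgen-sensitive human prostate cancer cell line, here 1 line grown in phenol-red-free medium with hormone-stripped serum. Accessibility and mRNA were measured in cells given trichostatin A (TSA), an inhibitor of histone deacetylases, at 100 ng/ml for 24 h, against cells given the DMSO vehicle for the same time, with 3 ATAC-seq and 3 mRNA-seq libraries of each kind and 3 mRNA-seq libraries of untreated cells. Enhancer activity was measured by STARR-seq of the whole genome (WHG-STARR-seq) 72 h after transfection, in 2 output libraries against 1 input library, for 18 libraries in all.

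An enhancer is a DNA element that raises transcription from a promoter at a distance. In STARR-seq, random genomic fragments are placed inside a reporter transcript, so that an active fragment is read from the RNA it makes, whatever the chromatin at its place in the genome. DNase I and the transposase of ATAC-seq both cut DNA that is free of nucleosomes, and such maps of a cell line overlap without being equal. Forkhead factors such as FOXA1 bind enhancers of prostate epithelium, AP-1 dimers of JUN and FOS proteins respond to growth and stress signals, and p53 binds its sites in response to DNA damage.

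Every peak list was made from pooled libraries and the tables give means, so no value below has an error between replicates. The authors' own columns comparing TSA with vehicle were not used, and no test between conditions was run here. Intervals are 95% intervals (Wilson for shares, Poisson for fragments) and cover counting error only, and enhancers are not replicates of a condition. Enhancer activity is the fold enrichment at the summit, the output fragments plus 1 over the scaled input fragments plus 1. Its intervals carry the counting error of the output alone, with the input taken as fixed. The fragments behind it were recovered from the fold and p-value of each peak: the members held 109734 output fragments and 33485 scaled input fragments at their summits, with medians of 51 and 15.3. Total library depth is not given in these files. All mRNA levels given here are averages of the authors' fit over libraries, not levels of vehicle cells alone. Luminal prostate genes were high in the mRNA-seq (FOLH1 at 11.2, HOXB13 at 8.81, FOXA1 at 8.46 and KLK3 at 8.04 log2 CPM), and KLK2, the lowest of the luminal markers given, was at 4.41. Of the 10 markers of other cells, TP63, KRT14, DCN, PTPRC and CHGA were below 0 log2 CPM, ACTA2, SYP and CD68 lay between 1.25 and 3.17, and basal KRT5 (6.23) and stromal COL1A1 (6.77) were higher. The part of other cells in the results was not tested.

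Sequences of members on which the results turn come first, read from the hg19 genome, 300 bases around the summit on the forward strand. A consensus site of p53 (both decamers, without a gap) lay within 200 bases of the summit in 5 members, and the 2 with the highest activity are shown, chosen after their values were seen. They lay nearest to ERCC4 (chr16:13547309-13547608) and FSHB (chr11:30219433-30219732), and capitals mark the p53 sites.
ERCC4: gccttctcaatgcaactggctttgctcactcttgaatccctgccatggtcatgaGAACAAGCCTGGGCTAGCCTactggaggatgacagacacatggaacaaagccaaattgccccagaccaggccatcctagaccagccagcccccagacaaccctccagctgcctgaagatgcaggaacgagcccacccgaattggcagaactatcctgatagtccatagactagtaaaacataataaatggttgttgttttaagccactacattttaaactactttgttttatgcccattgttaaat
FSHB: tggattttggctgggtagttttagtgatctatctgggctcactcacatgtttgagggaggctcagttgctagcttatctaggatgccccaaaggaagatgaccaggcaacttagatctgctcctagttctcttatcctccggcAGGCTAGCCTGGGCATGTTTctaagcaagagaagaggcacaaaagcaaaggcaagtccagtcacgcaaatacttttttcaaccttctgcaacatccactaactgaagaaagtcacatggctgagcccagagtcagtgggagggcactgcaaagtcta

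The next 4 show members of high activity that hold other motifs. Those nearest to ATF3 (chr1:212769815-212770114), DYNC1I1 (chr7:95320793-95321092) and KYNU (chr2:143631943-143632242) have their AP-1 motifs (TGANTCA) and forkhead motifs (TGTTTNC) in capitals. The member in an intron of PLXNB2 (chr22:50744238-50744537), an enhancer that the authors also cloned for luciferase assays, has its ETS motif (CCGGAAG) and GC box (GGGCGG) in capitals. Motifs were searched on both strands, and a match is a description of the letters, not of binding.
ATF3: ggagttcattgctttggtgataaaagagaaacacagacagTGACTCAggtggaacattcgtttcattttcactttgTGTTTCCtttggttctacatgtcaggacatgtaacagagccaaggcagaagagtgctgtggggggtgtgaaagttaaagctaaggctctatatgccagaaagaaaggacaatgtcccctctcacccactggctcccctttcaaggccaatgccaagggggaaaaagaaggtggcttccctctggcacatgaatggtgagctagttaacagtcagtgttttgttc
DYNC1I1: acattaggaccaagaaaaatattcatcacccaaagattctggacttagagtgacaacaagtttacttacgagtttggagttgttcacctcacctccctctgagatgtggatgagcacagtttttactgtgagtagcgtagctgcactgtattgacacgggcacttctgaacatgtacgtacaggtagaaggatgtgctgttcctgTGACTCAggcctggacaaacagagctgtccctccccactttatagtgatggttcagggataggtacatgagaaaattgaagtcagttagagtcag
KYNU: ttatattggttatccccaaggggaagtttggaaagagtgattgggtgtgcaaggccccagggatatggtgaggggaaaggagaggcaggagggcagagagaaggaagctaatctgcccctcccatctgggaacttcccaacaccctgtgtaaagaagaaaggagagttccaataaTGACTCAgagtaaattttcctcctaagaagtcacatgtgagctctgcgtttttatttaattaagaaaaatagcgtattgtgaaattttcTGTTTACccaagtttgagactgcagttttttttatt
PLXNB2: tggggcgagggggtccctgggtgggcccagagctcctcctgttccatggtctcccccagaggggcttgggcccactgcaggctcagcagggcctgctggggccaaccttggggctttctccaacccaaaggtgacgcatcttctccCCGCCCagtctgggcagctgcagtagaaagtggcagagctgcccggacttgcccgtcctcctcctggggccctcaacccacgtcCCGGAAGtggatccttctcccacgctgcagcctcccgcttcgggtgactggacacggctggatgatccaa

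At the median, the members were about as active as other DNase-negative enhancers. Their median activity was 3.13 (interquartile range 2.61 to 3.82), against 3.10 in the 81157 DNase-negative enhancers outside vehicle peaks, 3.09 in the 4529 DNase-positive enhancers inside them and 2.64 in the 7451 DNase-positive enhancers outside them. Activity is a ratio and fell with the input. Input was at the genome background of 8.4 scaled fragments in 186 members. Within ranges of scaled input under 9, from 9 to 15, from 15 to 25 and above 25, the median activity of members was 3.94, 3.37, 2.80 and 2.53, against 3.72, 3.24, 2.72 and 2.37 in DNase-negative enhancers outside vehicle peaks. The members' median was the higher in each of the 4 ranges.

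Highly active enhancers were a small part. Activity exceeded 10 in 25 members (1.80%), against 1.02% of DNase-negative enhancers outside, 2.01% of DNase-positive enhancers inside and 1.11% of all enhancers. Of the 10 most active members, 9 are described here, all with an activity of at least 15.8. The highest of them lay 467 kb upstream of ERCC4, which encodes a subunit of the nuclease of nucleotide excision repair (chr16:13547034-13547884), with 410 output and 12.4 scaled input fragments and an activity of 30.8 (27.9 to 33.9). A member in an intron of ATF3, a stress-induced transcription factor (chr1:212769471-212770393), had 291 output and 8.87 scaled input fragments and an activity of 29.6 (26.3 to 33.2). The member 32.9 kb upstream of FSHB, the beta subunit of follicle-stimulating hormone (chr11:30219081-30220163), reached 27.1 from 365 output and 12.5 scaled input fragments. Its interval, 24.4 to 30.0, overlaps those of the ERCC4 and ATF3 members even without the counting error of the input.

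The other 6 ranged from 25.3 to 15.8. The member near RPL23AP7, a ribosomal protein pseudogene (chr2:114371329-114372220), reached 25.3, and its words occur in 10 copies in the genome. Upstream of AREG, which encodes the EGF receptor ligand amphiregulin, a member reached 22.0 (chr4:75278888-75279761). Upstream of DYNC1I1, a dynein chain gene, a member reached 21.4 (chr7:95320557-95321324). Members in introns of ZNF680 and NECTIN4, the gene of a cell adhesion protein, reached 16.5 and 16.3 (chr1:161044195-161045106), and a member in an exon of FAM198B reached 15.8 (chr4:159092045-159092992). The NECTIN4 member rested on the most output fragments of the 9 (542) and on 32.4 scaled input fragments, the highest input among them.

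**Figure D1:**
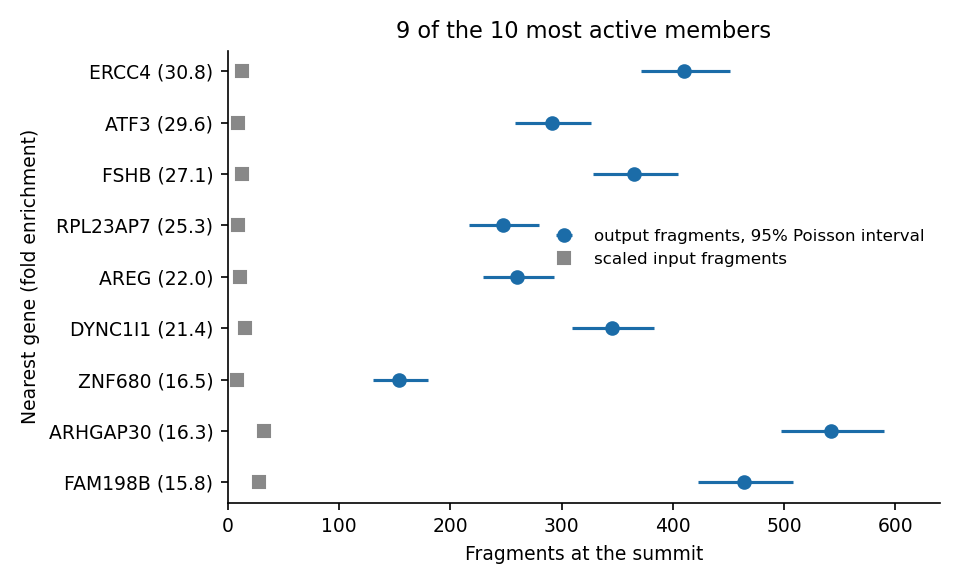
Output fragments (circles, with 95% Poisson intervals) and scaled input fragments (squares) at the summit of 9 of the 10 most active members, on a linear axis, with the nearest gene and the fold enrichment at the left. The member in an intron of NECTIN4 is labelled by the gene with the nearest start site, ARHGAP30. Output ran from 154 to 542 fragments and scaled input from 8.40 to 32.4, so the ranges do not overlap in any member.

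The vehicle peaks that held members were typical of the whole list in height. The median Fseq score, a density of transposase cuts, was 0.0605 in the 1383 peaks with a member, against 0.0757 in the 4322 peaks that held only DNase-positive enhancers, 0.0573 in the 33108 peaks without an enhancer and 0.0591 in all 38813. The list begins at a score of 0.0390. Of the members, 47.5% lay in a peak below the median of the list. Member peaks were also narrower than peaks of DNase-positive enhancers, with a median width per enhancer of 1001 bases against 1577. Of the 1383 peaks, 1371 held 1 member and 12 held 2 or more, and 53 members (3.81%) shared their vehicle peak with a DNase-positive enhancer. In the authors' table of merged sites, the average over TSA and vehicle libraries was 3.71 log2 CPM at the members, against 5.11 at DNase-positive enhancers inside and 3.54 over all sites. It was 2.77 at the 1227 DNase-negative enhancers outside that met a merged site. These were 1.51% of their class, as many as were in a TSA peak, so the value is not a level of the class.

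Members also sat less squarely in their peaks. The summit of enhancer activity was inside the vehicle peak in 983 members (70.7%), against 93.5% of DNase-positive enhancers inside, and the peak covered a median of 73.2% of the enhancer, against 100%. The shared length was 441 bases at the median, from 1 to 2168, and 374 members (26.9%) were covered whole. At the edge of the rule, 83 members (5.97%) shared fewer than 50 bases. The 2 smallest overlaps were 1 base at chr9:132261135-132261781 (activity 2.19) and 2 bases at chr1:228360074-228360553 (2.10), and the 2 nearest enhancers outside, each adjoining a peak, were chr16:48446262-48446830 (2.85) and chr19:282264-282946 (2.64). In all, 75 DNase-negative enhancers lay within 50 bases of a vehicle peak without being members, and 986 lay within 500 bases.

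High activity and high accessibility rarely went together. Members were ranked by vehicle score into 4 ranges of 347 or 348, and activity above 10 was found in 12, 8, 4 and 1 of them from the lowest range to the highest (3.45%, 2.31%, 1.15% and 0.287%). In DNase-positive enhancers with scores in the same ranges the shares were 2.34%, 2.70%, 1.76% and 1.67%. Median activity moved little, at 3.26, 3.13, 3.19 and 2.98 in members. The 9 highly active members described above had scores from 0.0410 to 0.0822. The single member of the highest range with an activity above 10, named after its values were seen, lay 159 kb from REXO1L1 (chr8:86733710-86734789), reached 11.3 from 4798 output and 423 scaled input fragments at a score of 0.504, and its words occur in 15 copies. Scaled input rose along the same ranges, with medians of 14.5, 14.6, 15.7 and 17.6, and its part in the pattern was not tested.

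**Figure D2:**
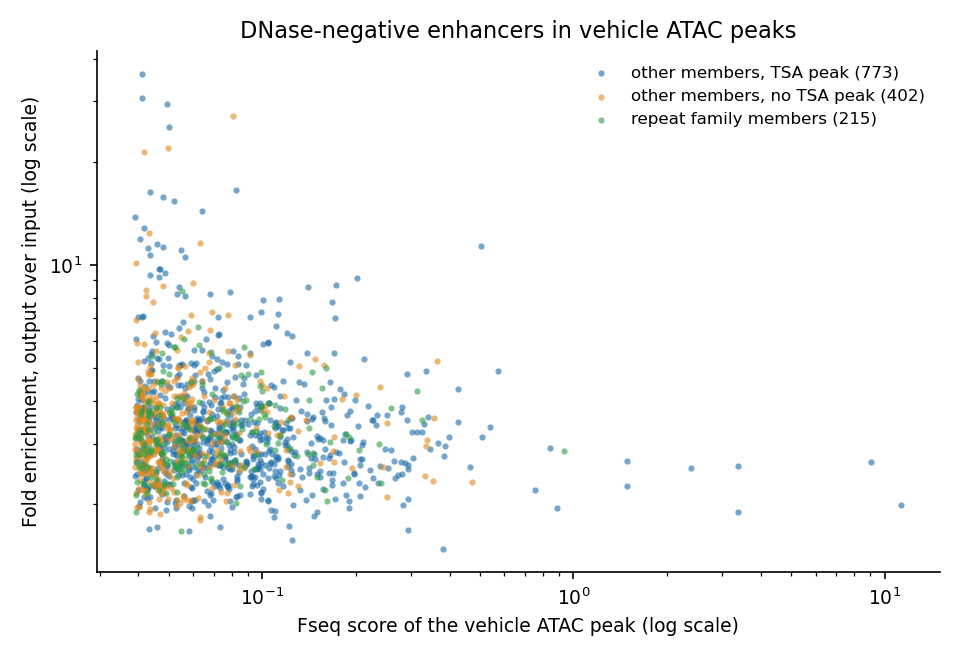
Fold enrichment of each of the 1390 members against the Fseq score of its vehicle ATAC peak, both on log axes, with members of the repeat family (215 members that share their sequence, described further on), other members in a TSA peak and other members in no TSA peak in separate colours. Members above 10 sit mainly at the left, and the members with the highest scores, up to 11.3, have fold enrichments between 1.90 and 2.91.

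The 10 members with the highest vehicle scores had low activity and, in most, a very high input. The highest score, 11.3, belonged to chr10:42385578-42386072, with 1034 output against 520 scaled input fragments and an activity of 1.99. The next, 9.01, belonged to chr1:121484407-121485454, with 2950 against 1110 fragments and an activity of 2.66. In chr7:61968765-61969806, at a score of 3.38, there were 7448 output fragments, the most of any member, against 2883 of input. Input exceeded 70 scaled fragments in 8 of the 10, against the median of 15.3, and activity ran from 1.90 to 2.91. Their scores under TSA were close to those in vehicle, at 10.5 against 11.3 for the highest and 9.02 against 9.01 for the next. No annotation of centromeres or repeats was used here, and the part of the high input in these values was not tested.

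Members lay far from start sites at the median, and over all distances the genes nearest to them were expressed at low levels. The median distance to a start site was 86.8 kb, against 54.9 kb for DNase-negative enhancers outside and 0.254 kb for DNase-positive enhancers inside, and 46.7% of members were more than 100 kb away, against 35.3% and 4.26%. By their centre, 821 members (59.1%) were intergenic, 454 (32.7%) were in introns, 68 (4.89%) were at promoters, 25 in other exon sequence, 8 in a 5′ UTR, 7 in a 3′ UTR and 7 at a gene end. The nearest gene had a median of 1.78 log2 CPM, against 2.34, 5.21 and 3.36 in the DNase-negative outside, DNase-positive inside and DNase-positive outside classes. The median of all 22336 genes was 2.94. For the 555 members with a start site within 50 kb the nearest gene was at 3.09 (2.55 to 3.61), against 3.02, 5.31 and 3.38 in the same classes. Near genes, the members' level was therefore close to that of DNase-negative enhancers outside and to the median of all genes. Without the 340 members in repeated sequence, the median distance was 69.3 kb and the nearest gene was at 1.94 log2 CPM, against 55.9 kb and 2.28 in DNase-negative enhancers outside treated the same way.

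Base composition set the members close to other DNase-negative enhancers. Their median GC content was 47.5% (46.3% outside repeated sequence), against 46.1% in DNase-negative enhancers outside and 59.6% in DNase-positive enhancers inside, and the ratio of observed to expected CpG was 0.257, against 0.194 and 0.673. Few members lay close to a DNase site that holds an enhancer, the only DNase sites examined. The nearest DNase site that holds an enhancer was within 1 kb of 46 members (3.31%), against 0.515% of DNase-negative enhancers outside. The median distance was greater for members, at 313 kb against 158 kb. DNase sites that hold no enhancer were not analysed here.

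The 68 members at promoters lay in higher vehicle peaks than members as a whole. Promoters were 4.89% of members (3.88 to 6.16), against 0.856% of DNase-negative enhancers outside, 51.3% of DNase-positive enhancers inside and 3.86% of all enhancers. The share depends on how a promoter is drawn: with a wider window it was 8.78%, against 2.01% and 64.4%, and with the start sites of all GENCODE transcripts 9.42%, against 2.86% and 57.7%. Their vehicle peaks had a median score of 0.0950, against 0.0608 for all members. Against 69.4% of all members, 60 of the 68 (88.2%) were also in a TSA peak. Their GC content was 49.2%, against 49.2% at promoters of DNase-negative enhancers outside and 61.0% at those of DNase-positive enhancers inside. Their genes stood at 3.37 log2 CPM, above the -0.36 of DNase-negative enhancers outside and below the 5.50 of DNase-positive enhancers inside. The strongest was at the promoter of GTF2B, the general transcription factor TFIIB (chr1:89356874-89357579), with 136 output against 14.0 scaled input fragments, an activity of 9.14 and a vehicle score of 0.201. Among the 10 strongest, listed after their values were seen, were promoters of DDX53, an RNA helicase gene (activity 7.77), SLC25A26, the mitochondrial carrier of S-adenosylmethionine (6.98), ZBTB20, a zinc finger repressor (5.90), HSPA4L, a chaperone of the heat shock family (5.52), and RGS7, a regulator of G protein signalling (4.89). The strongest member in a 5′ UTR was that of GRM8, a glutamate receptor gene (6.61), in a 3′ UTR that of the progesterone receptor gene PGR (4.79), and at a gene end that of ZNF175 (5.19).

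Members were spread over all chromosomes but not in proportion to their enhancers. The largest numbers were on chromosomes 1 (150), 3 (118), 4 (111), 5 (103) and 8 (100). On chromosome 2, 55 members made up 0.759% of the DNase-negative enhancers, against 2.20% on chromosome 1, and the vehicle list held 1825 peaks there, against 3801 on chromosome 1. The share was highest on Y, at 5.83% (14 members), followed by X at 3.22%, and lowest on chromosome 17 at 0.609%. Set against the vehicle peaks of the chromosome, there were 5.19 members per 100 peaks on Y, 2.72 on X, 1.37 on chromosome 17, 3.01 on chromosome 2 and 3.95 on chromosome 1, so X did not stand high by this measure.

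Repeated sequence was more frequent among members than in any other class. Words of 24 bases within 100 bases of the summit occurred in 10 or more copies in the genome for 340 members (24.5%), against 11.4% of DNase-negative enhancers outside, 0.464% of DNase-positive enhancers inside and 0.859% of DNase-positive enhancers outside. When members that share at least 20 such words were joined, 215 (15.5%) fell into a single group, called the repeat family, and the next group had 7 members. Requiring 1, 10 or 50 shared words instead gave 235, 228 and 192. The family made up 206 of the 340 repeated members (60.6%) and was found on 22 chromosomes, with at most 23 members on 1 of them.

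Family members with the commonest word had a common layout. The word found in the largest number of members (106) lay on the forward strand in 53 of them and on the reverse strand in 53. Measured along the word's own strand, the summit was 26.5 bases after the start of the word at the median (interquartile range -20 to 65.8), and a forkhead motif began 77 bases after it in 95 of the 106 (89.6%). Words were taken within 100 bases of the summit only, so the distance of the summit was partly set by the search. The 106 were picked for a shared word, so a motif at a fixed place partly restates that they share sequence. A stop-free reading frame of at least 300 codons lay within 7000 bases downstream in 100 of the 106 (94.3%) and on the opposite strand, upstream, in 1 (0.943%). Its median length was 571 codons and it began a median of 2.61 kb after the word. Either side and on either strand, 206 family members (95.8%) had such a frame, against 163 (13.9%) of the other members. LINE-1 retrotransposons are a family of mobile elements whose internal promoter is followed by long reading frames. No annotation of repeats was used here, and the members were described by their sequence alone.

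The family had ordinary activity and high scores under TSA. Median activity was 3.11 and the maximum 8.41, so none exceeded 10. The strongest lay 1151 kb from SORCS1, with 78 output against 8.40 scaled input fragments. Of the 215 members, 191 (88.8%, 83.9 to 92.4) were in a TSA peak, against 65.8% (63.0 to 68.4) of the other members. The TSA peaks of the 191 scored 0.123 at the median, against 0.0570 in the vehicle peaks of the 215. For the 191, the TSA score over the vehicle score was 1.72 at the median (log2 0.78, interquartile range 0.19 to 1.27). It was above 1 in 164 (85.9%) and above 2 in 70 (36.6%). These shares were 62.2% and 5.95% in other members in both lists, and 60.6% and 2.78% in all such vehicle peaks. For the other 773 members in both lists the median was 0.12 on the log2 scale, for all 27626 vehicle peaks in both lists 0.10, and for the 82 other members in repeated sequence -0.01. Peaks of the 2 lists were scored separately, so the shift of 0.10 over all peaks is the level to set these values against.

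**Figure D3:**
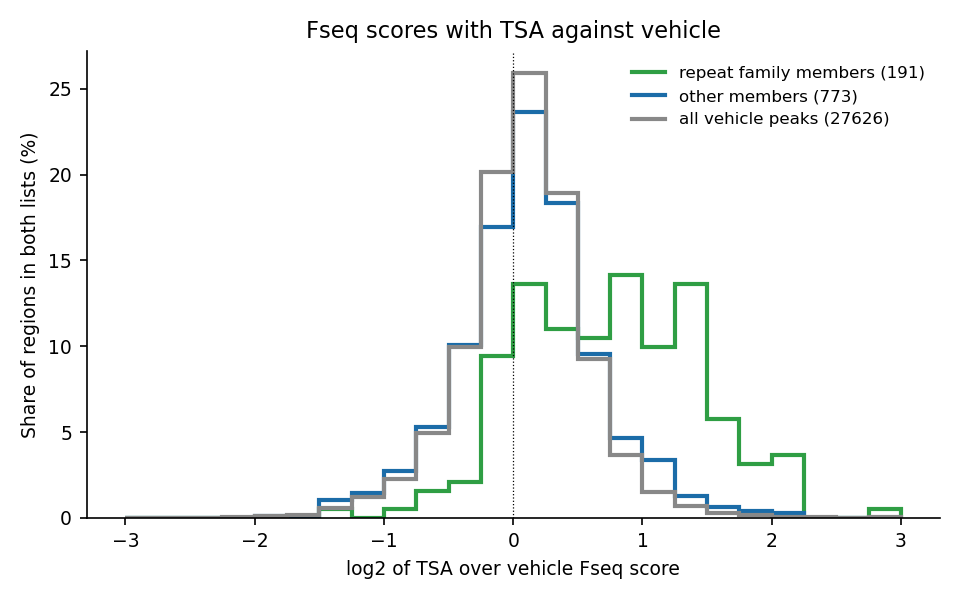
Distribution of the log2 ratio of the TSA over the vehicle Fseq score, in steps of 0.25 from -3 to 3, as a share of the regions in both lists: 191 repeat family members, 773 other members and 27626 vehicle peaks. The family is shifted to the right, with a median of 0.78, while the other members (0.12) lie close to all peaks (0.10).

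Family words were also found outside vehicle peaks. They lay at the summits of 1404 enhancers. Of these, 16.0% lay in a vehicle peak and 40.1% in a TSA peak, against 7.69% of all enhancers in a TSA peak. The words were taken from the 215 family members, which lie in vehicle peaks by rule and are counted among the 1404. The 16.0% was therefore largely set by the rule, and the 40.1% includes the 191 family members in a TSA peak. Among the 1178 DNase-negative enhancers outside vehicle peaks with at least 20 family words, 31.0% were in a TSA peak, against 1.36% of the other repeated DNase-negative enhancers outside. Only 2 DNase-positive enhancers inside vehicle peaks and 1 outside held as many, and enhancers with fewer family words were not counted. Reads from near-identical copies can be assigned only where they are unique, and the authors kept uniquely mapped reads. In the merged-site table the family averaged 2.55 log2 CPM and the part of mappability was not tested. The genes nearest to family members stood at 0.81 log2 CPM and at a median distance of 168 kb.

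Over all members, 964 (69.4%, 66.9 to 71.7) were in a TSA peak, against 1.51% of DNase-negative enhancers outside, 93.4% (92.6 to 94.0) of DNase-positive enhancers inside, and 7.69% of all enhancers. Counted as peaks, 74.8% of vehicle peaks with a member met a TSA peak, against 95.3% of those with only DNase-positive enhancers, 67.9% of those without an enhancer and 71.2% of all. The share depended on the vehicle score. From the lowest to the highest of the 4 score ranges it was 47.7%, 65.7%, 76.9% and 87.1% in members, against 72.1%, 91.7%, 96.8% and 98.6% in DNase-positive enhancers of the same ranges. Intervals of the classes do not overlap in any of the ranges. Outside repeated sequence, the members' shares were 44.2%, 61.6%, 73.3% and 86.2%. The share also differed by place in the peak. It was 75.5% in members with the summit inside the vehicle peak and 54.5% in those with it outside. The summit was inside in 70.7% of members and 93.5% of DNase-positive enhancers. The part of this in the gap between the classes was not tested.

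**Figure D4:**
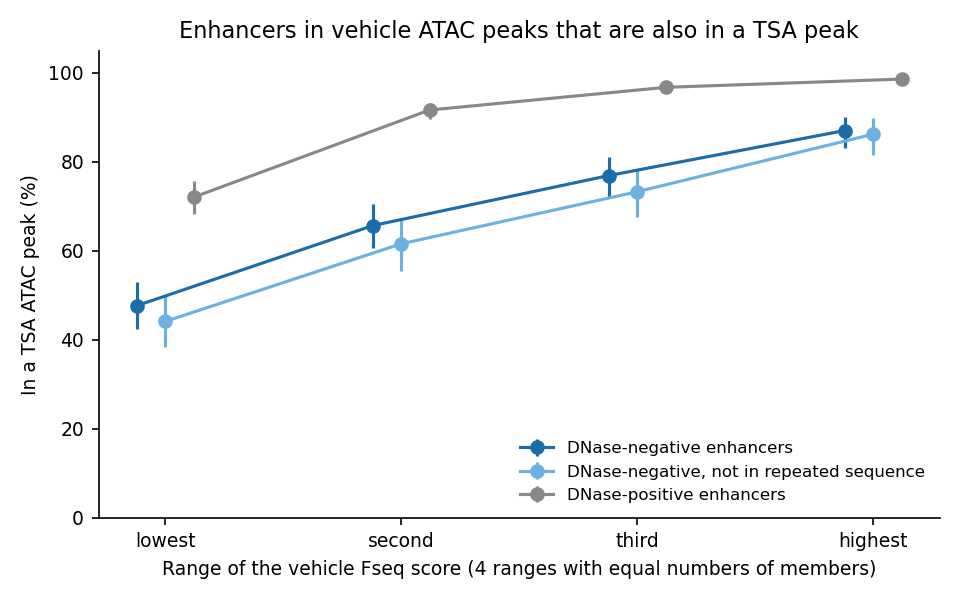
Share of enhancers in vehicle ATAC peaks that were also in a TSA ATAC peak (percent, with 95% Wilson intervals), in 4 ranges of the vehicle Fseq score, for members, members outside repeated sequence and DNase-positive enhancers. The share rises with the score in each class, and members lie below DNase-positive enhancers in each range, at 47.7% against 72.1% in the lowest.

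Of the 25 members above 10, 19 were in a TSA peak and 6 were not, and over all members 426 of 1390 were not. FSHB (27.1), AREG (22.0), DYNC1I1 (21.4), SFSWAP, a splicing regulator gene (12.4), and TMEM132B (11.6) were the 5 strongest in no TSA peak, at vehicle scores from 0.0415 to 0.0803. The 5 strongest in a TSA peak outside the 10 most active were near PPARGC1A, a coactivator of mitochondrial genes (15.3), KYNU, the tryptophan-degrading enzyme kynureninase (14.4), NKAIN2 (13.8), NLGN4Y (12.8) and CPN2 (11.9). Among these 5, the TSA score exceeded the vehicle score most at NLGN4Y (0.0872 under TSA against 0.0418 in vehicle) and NKAIN2 (0.0758 against 0.0391).

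Forkhead motifs, and outside repeated sequence also AP-1 motifs, were more frequent in members than in other DNase-negative enhancers. A forkhead motif lay within 200 bases of the summit in 576 members (41.4%), against 28.9% of DNase-negative enhancers outside and 28.4% of all enhancers. Over the whole enhancer it was 53.5%, against 39.8% of DNase-negative enhancers outside, and within 100 bases of the summit 23.3% against 15.3%. In the repeat family the share was 79.5%. Outside repeated sequence it was 35.0% (32.1 to 37.9), against 29.4% (29.0 to 29.7) in DNase-negative enhancers outside and 21.6% in DNase-positive enhancers inside, with GC contents of 46.3%, 46.0% and 59.6%. An AP-1 motif lay in 217 members (15.6%), against 15.05% outside and 14.7% of all enhancers (8.56% against 8.41% within 100 bases), and outside repeated sequence in 18.4% (16.2 to 20.8) against 15.6% (15.4 to 15.9). ETS motifs were found in 3.05% of members outside repeated sequence, against 1.65%, and GC boxes in 8.86%, against 6.28%. For these motifs the intervals of the classes do not meet. They overlapped for the GATA motif AGATAA, found in 19.3% of members outside repeated sequence against 19.7%. They also overlapped for the TEAD motif GGAATG, found in 25.05% against 23.2%, and for the NFY motif CCAAT, found in 44.7% against 45.4%. Over all enhancers these 3 motifs had shares of 17.8%, 21.5% and 42.4%, and ETS motifs and GC boxes 2.79% and 10.2%.

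**Figure D5:**
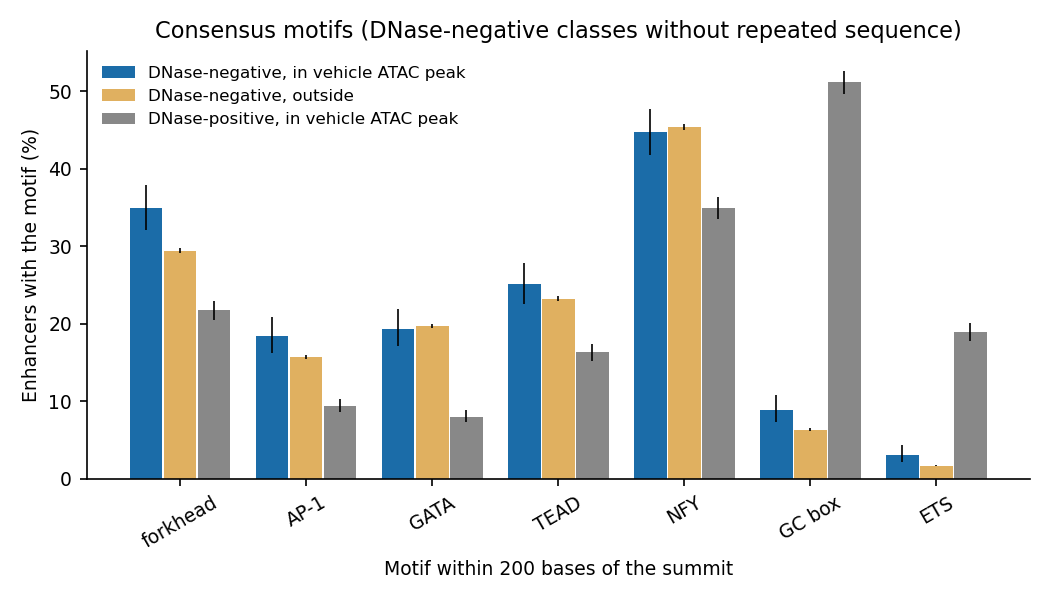
Share of enhancers with each consensus motif within 200 bases of the summit (percent, bars from 0 with 95% Wilson intervals), for members outside repeated sequence, DNase-negative enhancers outside vehicle peaks and repeated sequence, and DNase-positive enhancers in vehicle peaks. Members exceed the other DNase-negative enhancers for forkhead (35.0% against 29.4%) and AP-1 (18.4% against 15.6%), and DNase-positive enhancers stand apart by GC boxes (51.1%) and ETS motifs (18.9%).

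A CTCF consensus was rare, and more frequent in members than in other DNase-negative enhancers. CTCF is an insulator protein that anchors chromatin loops. Its consensus lay near the summit of 9 members (0.647%, 0.341 to 1.23), against 22 (0.0271%) of DNase-negative enhancers outside, 42 (0.927%) of DNase-positive enhancers inside, 48 (0.644%) of DNase-positive enhancers outside and 0.128% of all enhancers. The members were modest enhancers, with a median activity of 2.86 and vehicle scores of 0.0541 at the median. Against 69.4% of all members, 8 of the 9 were in a TSA peak. The strongest, named after its values were seen, was chr19:29227716-29228436 with an activity of 6.54, and another lay in an intron of CENPF, a centromere protein gene (2.86).

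Activity above 10 was more frequent in members with an AP-1 motif or a p53 site than in members without. With an AP-1 motif, 9 of 217 members (4.15%) exceeded 10, against 1.36% without it, although the medians were 3.26 and 3.11. This was not particular to members. The shares were 4.25% against 1.78% in DNase-positive enhancers inside and 2.18% against 1.28% in those outside. In DNase-negative enhancers outside they were 1.24% against 0.980%. The 9 members were 36.0% (20.2 to 55.5) of the 25 members above 10, while 18.3% (15.8 to 21.0) of the 827 such DNase-negative enhancers outside held the motif. Forkhead motifs went the other way, in 5 of the 25 (20.0%, 8.86 to 39.1), against 34.5% of the 827, and for both motifs the intervals of the 2 shares overlap. A p53 site without a gap lay in 4 of the 25 (16.0%) and in 133 of the 827 (16.1%). Of the 5 members with a gapless p53 site (0.360%, against 0.408% of DNase-negative enhancers outside and 0.371% of all enhancers), 4 exceeded 10, against 1.52% of the members without it, and the median activity was 12.4. Outside vehicle peaks, 40.2% of the 331 DNase-negative enhancers with this site exceeded 10, and the median was 8.65 with the site and 3.10 without it.

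The p53 sites of 3 of the 5 members lay outside the accessible stretch. They were searched for within 200 bases of the summit only, so their nearness to it was partly set by the search. Their centres were 3 bases from the summit at FSHB, 15 at SFSWAP, 22 at ANXA1, 35 at SPOCK1 and 86 at ERCC4. ANXA1 encodes the phospholipid-binding protein annexin A1, whose nearest member reached 10.7, and SPOCK1 encodes a matrix proteoglycan, with a member at 5.05. The sites at ANXA1 and SPOCK1 were inside the vehicle peak, whereas those at ERCC4, FSHB and SFSWAP were 314, 164 and 352 bases away from it. These 3 members therefore belong to the set through a flank, and the peak covered 22.1% of the ERCC4 member and 30.6% of the FSHB member. Members near ERCC4 and ANXA1 were in a TSA peak and the other 3 were not.

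Genes near members came from 6 of the 11 lists examined. Of the 199 genes in these lists, 17 (8.54%) were the nearest gene of a member, against 1054 of 20786 genes (5.07%). Among 22 AP-1 and immediate early genes there were 4, with members near ATF3 (29.6), FOS, the AP-1 subunit (2.85), KLF6, a zinc finger factor (2.56), and IER5 (2.38). Of 17 genes of the unfolded protein and ATF4 response there were 4, among them the amino acid genes PSAT1 (4.36) and ASNS (3.09) and the cystine transporter gene SLC7A11 (3.83). Among 14 luminal transcription factor genes there were 3, TRPS1 (3.40), ETV1 (3.11) and EHF, whose member was at its promoter (2.83). Of 25 androgen-responsive genes only NDRG1 had a member (2.38), and of 17 glycolysis genes only PFKP, the platelet phosphofructokinase, which had 2 (3.19 and 2.85). No gene among 20 of growth arrest and p53 response, 20 ribosomal protein genes, 16 replication-dependent histone genes, 17 of cholesterol and fatty acid synthesis and 12 neuroendocrine genes was nearest to a member.

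The list of plexins and semaphorins, receptors and ligands of axon guidance, also held NRP1 and gave 4 of 19 genes. Against 69.4% of all members, all 4 members near these genes were in a TSA peak. The strongest was the PLXNB2 member printed above (chr22:50743977-50744859). It lay 1.64 kb downstream of the start of the gene, which was at 8.05 log2 CPM, and had 239 output fragments (210 to 271) against 26.8 scaled input fragments, an activity of 8.62. Its score was 0.0570 under TSA against 0.0542 in vehicle, and its sequence was in a single copy. The member in an intron of SEMA3A, a secreted semaphorin gene (3.81), had words in 477 copies and scored 0.124 under TSA against 0.0457 in vehicle, and that upstream of NRP1, the semaphorin coreceptor (2.89), scored 0.0546 against 0.0575.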

How the data were processed

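WHG-STARR-seq, ATAC-seq and mRNA-seq files of LNCaP cells were used as deposited, with coordinates in hg19. For enhancers, the authors aligned reads with Bowtie, kept unique fragments, collapsed duplicates with Picard, pooled both output libraries and ran MACS2 with the input as control (q-value under 0.05). The deposited lists give a MACS2 score, a fold enrichment (a ratio), a −log10 p-value and a −log10 q-value per peak. The DNase I sites came to the authors from a public map of LNCaP. ATAC-seq reads were aligned by the authors with Bowtie and, after cutadapt, Bowtie2, uniquely mapped reads were kept, and Fseq called the peaks, and each deposited list gives an Fseq score for the pooled libraries of a condition. The authors' edgeR tables for ATAC sites and for mRNA (reads aligned with TopHat) hold a mean in log2 CPM, used here, and a log2 fold change, likelihood ratio, p-value and q-value of TSA against vehicle, which were not used. Versions were not given in the sources used here. No file has a value per library, so depth and replicate error are unknown.

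Members were found by overlap of at least 1 base. Whole output fragments and scaled input were solved from each fold (with 1 added to both) and p-value, and output was within 0.0410 of a whole number throughout. Start sites were those of 20786 of the 22336 genes in the GENCODE annotation of GRCh37, matched by symbol. Promoters ran from 1000 bases upstream to 100 downstream. Motifs were searched within 200 bases of the summit. Words of 24 bases within 100 bases of the summit were counted in the genome, and 10 or more copies were called repeated. The recovery of fragments, the overlaps and a search for the AP-1 motif were tested on simulated data, and the other steps were not. The simulated input stayed below the highest input of the members. Python 3.11.15, numpy 2.4.6, pandas 2.3.3, scipy 1.17.1, pysam 0.24.0, numba 0.67.0 and matplotlib 3.10.9 were used.

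The members, gene lists and motifs were chosen with earlier results of these data known. Regions were named by rule: the 10 highest in activity and in vehicle score, the strongest in each place and of each gene list (up to 3), the 5 strongest with and without a TSA peak, the 2 nearest to either side of the overlap rule, and PLXNB2. Some items that the rule names, and some motifs and sequences, are not reported here. Others are named in the text as chosen after their values were seen, as was IER5. Alternatives were a stricter overlap, higher scores and q-values, input above background, other promoter and motif windows, and leaving out repeats or the repeat family.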

Additional observations from a re-analysis of the deposited data

How the results depend on the processing

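No paired analysis was possible because no file gives a value per library, and for the same reason no library could be left out. Of 78 alternatives, 45 were counted as unmoved, 33 as moved and 0 as turned round. A value was unmoved if it stayed within the interval of the main result. The number of members has no interval: from 958 to 1248 it was counted as unmoved, against 1390 in the main setting, and at 730 as moved. Turning round meant a change of sign, which only the expression level could show, so the 0 is no sign of stability. The alternatives on the repeat family, on forkhead motifs and on promoters of all GENCODE transcripts, 26 in all, were chosen after seeing the data. Keeping vehicle peaks above the median score gave 730 members, a score of 0.0904, 81.9% in a TSA peak and 6.99% at promoters. With the summit inside the peak, 75.5% were in a TSA peak and 28.2% were repeated, and with at least 50% of the enhancer covered these were 75.1% and 28.6%, with a GC content of 48.2%. Without repeated sequence, the TSA share was 66.5%, GC 46.3% and AP-1 motifs 18.4%, and without the repeat family the TSA share was 65.8%, GC 46.2% and repeated sequence 11.4%. A stricter q-value gave a median activity of 3.26, and input above background gave 3.01. A wider promoter window gave 8.78% at promoters and all GENCODE transcripts 9.42%. GC content within 200 bases of the summit was 48.4%. Counting 3 or more copies as repeated gave 29.4%. Genes within 50 kb were at 3.09 log2 CPM. AP-1 motifs were found in 21.6% over the whole enhancer and 8.56% within 100 bases, and forkhead motifs in 53.5% and 23.3%. Depth limits every value near the genome background of 8.4 scaled input fragments, where activity rests on few input fragments, and a peak missing from the TSA list may lie just below its lowest score of 0.0377.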
